A study of Homo sapiens with 16 samples.

Results

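Reads on 10 genes of the Wnt pathway were followed in 2 human glioblastoma cell lines, U251 and U343, after transfection of a miR-137 mimic. The genes encode secreted antagonists (SFRP1, SFRP4, DKK1, DKK3), receptors of the frizzled family (FZD1, FZD2, FZD7), the receptor RYK, the co-receptor LRP6 and the ligand WNT5A. They were taken by symbol from tables of 20314 genes in U251 and 20626 genes in U343, and all 10 are listed in both. Cells received 25 nM of the miR-137 mimic or of a control mimic and were harvested, for total RNA (RNASeq), after 48 hours. In RIPSeq, RNA was recovered with antibodies to the poly(A)-binding protein PABP, a protein that coats the tails of messenger RNAs. The cell line, assay and transfection give 8 groups of 2 libraries each, 16 in all, with 10156675 to 45134766 counted reads a library. The labels do not say whether the 2 libraries of a group came from separate cultures, so p-values measure only the spread between these libraries, and the values hold for these 2 lines. The cDNA of U343 was made with the TotalScript kit and that of U251 without it, so that line and library preparation cannot be told apart.

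Wnt ligands bind frizzled receptors together with LRP5 or LRP6, which stabilises beta-catenin and lets TCF and LEF factors activate genes. Other ligands, of which WNT5A is the best known, act largely without beta-catenin, through frizzled receptors, ROR proteins and RYK. SFRP proteins resemble the ligand-binding part of the frizzled receptors and capture Wnt ligands outside the cell. DKK1 instead binds LRP6 and blocks it, and is itself a gene that beta-catenin activates. DKK3 is an outlying member of the DKK family, without the binding to LRP6 that marks DKK1. miR-137 is a microRNA of neurons that is low in gliomas, and it lowers messenger RNAs that carry a match to its seed, mostly beyond their coding part.

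The mature microRNA is shown because its seed is what is added to the cells, and promoters are shown for DKK1, which was nearly absent from U343, for SFRP4, which moved in opposite directions in the lines, and for RYK, which was read in quantity in both. The seed, bases 2 to 8 of miR-137-3p, is in capitals in the RefSeq sequence (GRCh38.p14, chr1:98046091-98046113, minus strand), and it pairs with AGCAAUA. No transcript sequence of the build of these files was used here, so the seed match was not searched in the 10 messenger RNAs.
miR-137-3p: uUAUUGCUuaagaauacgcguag
The promoter windows run from 250 bases before to 50 bases after the RefSeq start site in GRCh38.p14, and 5 of the 10 genes had one in the table. Capitals mark CTTTGA on either strand, the core of the sequence TCF and LEF factors bind, and TATAAA. The DKK1 window (chr10:52314031-52314330, plus strand) holds CTTTGA 2 times, 1 of them as TCAAAG on the printed strand, and TATAAA 1 time, ending 24 bases before the start site.
DKK1: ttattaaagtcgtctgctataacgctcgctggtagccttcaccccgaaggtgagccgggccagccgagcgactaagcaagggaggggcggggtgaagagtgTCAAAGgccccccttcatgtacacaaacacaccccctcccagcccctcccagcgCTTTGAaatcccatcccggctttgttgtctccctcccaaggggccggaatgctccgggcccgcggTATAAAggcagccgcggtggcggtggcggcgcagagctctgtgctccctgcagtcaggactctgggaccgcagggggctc
The SFRP4 window (chr7:37916768-37917067, minus strand) and the RYK window (chr3:134250810-134251109, minus strand) hold neither motif.
SFRP4: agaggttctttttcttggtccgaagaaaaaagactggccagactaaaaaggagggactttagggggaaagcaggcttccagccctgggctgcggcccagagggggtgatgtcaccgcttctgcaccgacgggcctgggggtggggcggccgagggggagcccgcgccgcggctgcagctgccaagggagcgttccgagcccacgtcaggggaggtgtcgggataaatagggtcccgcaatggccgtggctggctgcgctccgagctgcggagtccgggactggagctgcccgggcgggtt
RYK: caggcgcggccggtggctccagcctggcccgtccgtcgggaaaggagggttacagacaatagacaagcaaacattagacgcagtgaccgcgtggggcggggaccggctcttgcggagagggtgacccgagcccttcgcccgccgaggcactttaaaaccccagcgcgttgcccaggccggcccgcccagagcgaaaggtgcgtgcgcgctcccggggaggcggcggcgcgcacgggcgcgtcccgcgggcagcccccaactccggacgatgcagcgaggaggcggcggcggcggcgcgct
Among 35116 RefSeq promoter windows of this length, 12.9% hold CTTTGA and 11.5% hold TATAAA on either strand. CG dinucleotides number 20 in the DKK1 window, 23 in that of SFRP4 and 43 in that of RYK, beside a median of 14, and 4.98% of windows have as many as RYK. A match is a description of the letters and not a bound site.

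Levels are given in CPM, reads on a gene relative to a common library total, after TMM scaling within an experiment, which sets the bulk of the genes equal between libraries. Both lines had the markers of astroglial and glioma cells, 7 of the 8 listed being at 1 CPM or more in both control RNASeq libraries. AQP4 was listed at 0 in U251, SLC1A3 was under 1 CPM in U343, and GFAP was 31.2 to 32.8 in U251 and 4490 to 4710 in U343. None of 4 leukocyte markers reached 1 CPM in either line. The summed level of 4 endothelial markers was 25.4 to 27.0 in U251 and 26.5 to 36.5 in U343, nearly all of it from KDR in U251, with PECAM1, CDH5 and VWF under 1 there, and from CDH5 (15.1 to 27.2) and VWF (7.68 to 9.85) in U343. Of 4 epithelial markers, KRT18 and KRT19 reached 1 CPM in U251, and CDH1 (65.7 to 120 CPM) and KRT18 in U343, while EPCAM was under 1 in both. The neuronal markers SYT1 (34.1 to 34.8 CPM), SNAP25 (3.51 to 3.73) and MAP2 (63.4 to 71.2) were above 1 in U251. In U343 SYT1 (1.61 to 1.62) and MAP2 (34.5 to 35.4) were. RBFOX3 and TUBB3, also on that list, were not named in the tables of both lines. The fibroblast list held genes above 1 in both lines. The 2 libraries of every group differed by more than counting noise, but the 2 U251 RIPSeq controls and the 2 U343 RNASeq miR-137 libraries stood apart, with a chi-square per degree of freedom of 286 and 200 against 2.82 to 25.2 in the other groups.

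**Figure D1:**
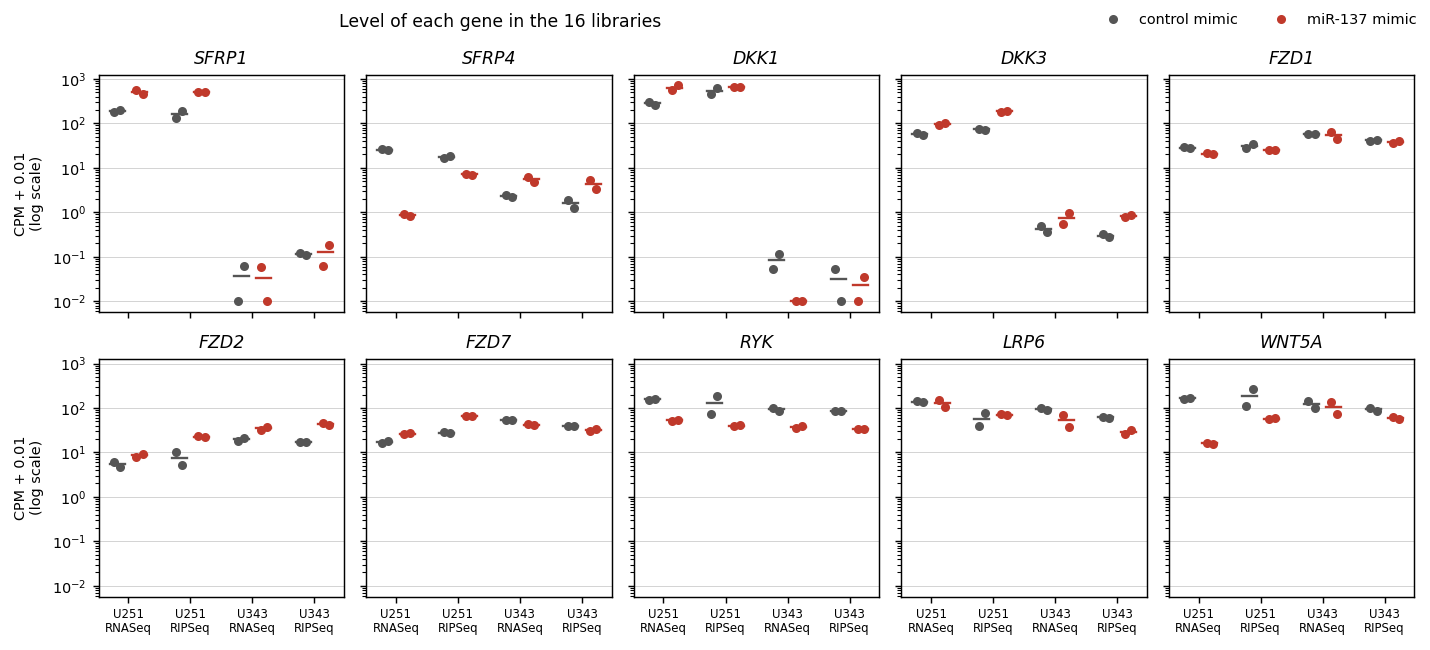
Each point is 1 library and each short line the mean of the 2 libraries of a group, as CPM plus 0.01 on a logarithmic axis, for control (grey) and miR-137 (red) transfections in the 4 experiments. SFRP1 and DKK1 lie above 100 in U251 and below 0.2 in U343, while FZD1, RYK, LRP6 and WNT5A are at 15.6 or more in every library of both lines.

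Before any miR-137, the largest differences between the lines among the 10 genes were those of the 4 antagonists. In RNASeq of control cells, SFRP1 was at 183 and 202 CPM in U251 and at 0 and 0.0528 in U343. DKK1 was at 301 and 263 in U251 and at 0.0433 and 0.106 in U343. These are 6163 and 9005 reads in U251 against 2 and 6 reads in U343, a ratio of 7770 (95% counting interval 2150 to 64200) for SFRP1 and of 3780 (1740 to 10300) for DKK1. Intervals of this kind cover counting error only. Olfactory receptor genes, which belong to sensory neurons of the nose, had a median of 0 reads and a 95th percentile of 2 reads in the same 2 U343 libraries, so that the 0 to 4 reads of SFRP1 and DKK1 lay near that background. DKK3 was at 59.7 and 54.6 in U251 and at 0.476 and 0.343 in U343, a ratio of 132 (94.3 to 190), and SFRP4 was at 26.5 and 24.7 against 2.49 and 2.16. All 4 antagonists were therefore higher in U251, as 35.9% of 15550 genes were in edgeR.

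The frizzled receptors ran the other way. FZD2 was at 6.07 and 4.65 CPM in U251 and at 18.3 and 21.5 in U343, FZD7 at 16.0 and 18.5 against 53.6 and 54.2, and FZD1 at 28.8 and 27.8 against 57.3 and 57.8. In edgeR, U343 was 3.87-fold higher for FZD2 (log2 ratio 1.95 ± 0.18 SE, adjusted p = 1.7e-05), 3.26-fold for FZD7 (1.70 ± 0.12, adjusted p = 3.1e-06) and 2.12-fold for FZD1 (1.08 ± 0.17, adjusted p = 3.6e-04). RYK was lower in U343, at 102 and 85.1 against 154 and 159 in U251 (log2 ratio -0.68 ± 0.12, adjusted p = 9.8e-04). LRP6 and WNT5A did not pass the threshold between the lines, with log2 ratios of -0.47 ± 0.27 and -0.37 ± 0.28 (adjusted p = 0.138 and 0.251, edgeR). In all, 5 of the 10 genes were lower in U343, where 35.9% of 15550 genes were, and 3 were higher, where 40.9% were. The median log2 ratio of the 10 was -0.57 and that of all genes 0.10.

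The 3 frizzled genes have no introns, and their levels can be compared per length with the deposited spans of 4350, 1983 and 3851 bases. Per kilobase, FZD1 was first in U251 control RNASeq with 6.5 ± 0.169 CPM (SD, n = 2), before FZD7 with 4.47 ± 0.460 and FZD2 with 2.70 ± 0.506. In U343, FZD7 with 14.0 ± 0.108 and FZD1 with 13.2 ± 0.0851 stood above FZD2 with 10.0 ± 1.17. After miR-137, FZD2 was the highest of the 3 in U343 RIPSeq, at 23.6 and 21.0 CPM per kilobase against 8.05 to 9.08 for the other two, and also in U343 RNASeq, at 16.4 and 18.4 against 10.3 to 14.8.

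In U251 total RNA, miR-137 was followed by opposite changes among the antagonists. SFRP4 (chr7:37912060-37923050, minus strand, hg18) stood at 26.5 and 24.7 CPM in the controls and at 0.902 and 0.799 after miR-137, from 819 reads to 19. SFRP1 moved up, from 183 and 202 to 566 and 451. DKK1 (chr10:53744047-53747423, plus strand) moved up as well, from 301 and 263 to 564 and 720. DKK3 (chr11:11941119-11987493, minus strand) went from 59.7 and 54.6 to 92.4 and 100.

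For all 4 antagonists the miR-137 libraries lay apart from the controls. SFRP4 fell 29.8-fold (log2 fold change -4.90 ± 0.24, adjusted p = 2.1e-09, edgeR). SFRP1 rose 2.64-fold (1.40 ± 0.15, adjusted p = 4.2e-06), DKK1 2.28-fold (1.19 ± 0.16, adjusted p = 2.5e-05) and DKK3 1.69-fold (0.75 ± 0.13, adjusted p = 2.3e-04). SFRP4 was thus the only antagonist of the 4 to fall, and its fall was the deepest among the 10 genes.

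The ligand and the non-frizzled receptor fell in the same libraries. WNT5A (chr3:55474783-55496371, minus strand, hg18) was at 162 and 169 CPM in the controls and at 16.5 and 15.6 after miR-137, a 10.3-fold fall (log2 fold change -3.36 ± 0.14, adjusted p = 5.4e-10, edgeR). RYK (chr3:135358668-135452276, minus strand), which carries WNT5A signals at the cell surface, was at 154 and 159 in the controls and at 51.3 and 54.2 after miR-137, a 2.96-fold fall (-1.57 ± 0.13, adjusted p = 3.6e-07). RYK has a pseudogene, RYKP1, and how reads that fit several places were counted is not given in the sources used here. LRP6 (chr12:12160228-12311078, minus strand) stood at 141 and 138 and at 148 and 108, and its groups overlapped (-0.12 ± 0.15, adjusted p = 0.502).

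The frizzled receptors moved little and not in 1 direction. FZD2 (chr17:39990451-39992433, plus strand) went from 6.07 and 4.65 CPM to 8.03 and 9.14, and FZD7 (chr2:202607555-202611405, plus strand) from 16.0 and 18.5 to 26.0 and 27.2. FZD1 (chr7:90731719-90736068, plus strand) went from 28.8 and 27.8 to 21.2 and 20.4. The groups did not overlap for any of the 3. FZD2 rose 1.6-fold (0.68 ± 0.21, adjusted p = 0.0126), FZD7 rose 1.54-fold (0.63 ± 0.15, adjusted p = 0.00273) and FZD1 fell 1.36-fold (-0.44 ± 0.14, adjusted p = 0.0159). These calls of FZD1 and FZD2 were lost in 2 of the 4 fits that left out a library. FZD1 lost its call without control replicate 1 (adjusted p = 0.0542) or miR-137 replicate 2 (0.0556), and FZD2 without control replicate 2 (0.113) or miR-137 replicate 2 (0.0679). FZD1 also missed the threshold with upper-quartile normalization, and FZD2 with DESeq2 and with no filter beyond 1 read (adjusted p = 0.0571).

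In U251 RNASeq, 4 of the 10 genes fell, where 29.0% of 13052 genes tested did, and 5 rose, where 28.7% did. The groups did not overlap for 9 of the 10 genes, where this held for 79.5% of all genes tested. The median log2 fold change was 0.26 over the 10 genes and 0.02 over all genes.

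**Figure D2:**
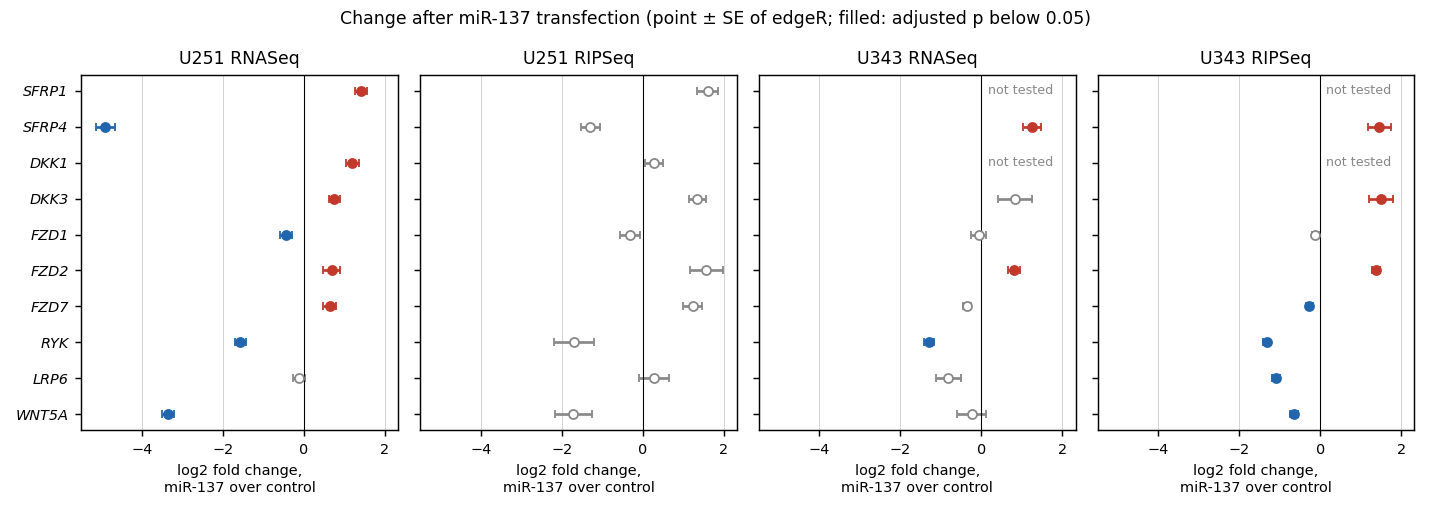
Each point is the log2 fold change of miR-137 over control in edgeR, in 1 panel per experiment. Bars are standard errors calculated from the F statistic. Filled points have an adjusted p below 0.05 (blue lower, red higher). SFRP4 lies at -4.90 in U251 RNASeq and at 1.24 and 1.46 in the U343 panels, and RYK lies between -1.70 and -1.30 in all 4.

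In U251 PABP-bound RNA all genes but LRP6 had values on the same side as in total RNA, but none passed the threshold in edgeR. LRP6 was at -0.12 in total and at 0.28 in PABP-bound RNA. SFRP4 was at 16.5 and 18.5 CPM in the controls and at 7.31 and 6.95 after miR-137 (log2 fold change -1.29 ± 0.24, adjusted p = 0.0939). SFRP1 was at 136 and 193 against 499 and 505 (1.61 ± 0.26, adjusted p = 0.0750), and DKK3 at 76.4 and 72.6 against 185 and 195 (1.35 ± 0.22, adjusted p = 0.0789). The miR-137 libraries lay apart from the controls for these 3 genes, as they did for 9 of the 10. The share over all genes was not counted in this experiment, and it was 79.5% in U251 RNASeq. FZD7 was at 28.4 and 27.1 against 64.4 and 66.1 (1.23 ± 0.24, adjusted p = 0.0991), and FZD2 at 10.1 and 5.08 against 23.1 and 21.9 (1.57 ± 0.40, adjusted p = 0.147). DKK1 was at 464 and 612 against 659 and 649 (0.28 ± 0.22, adjusted p = 0.537).

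The spread lay in the controls. RYK was at 73.4 and 187 CPM in the 2 control libraries, WNT5A at 113 and 262, and LRP6 at 40.1 and 75.5, so that the second control was 2.55, 2.32 and 1.89 times the first. The same ratio was 0.951 for DKK3, 0.957 for FZD7 and 1.12 for SFRP4, and 0.504 for FZD2. After miR-137 the 2 libraries were close, with RYK at 39.4 and 40.8, WNT5A at 56.8 and 58.1 and LRP6 at 71.5 and 68.6. RYK and WNT5A lay below both controls (-1.70 ± 0.50 and -1.71 ± 0.46, adjusted p = 0.181 and 0.157), FZD1 gave -0.31 ± 0.25 (adjusted p = 0.542), and LRP6 lay between its controls. Olfactory receptor genes had a median of 3 reads in the first control library and of 1 read in the other 3 libraries.

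None of the 10 genes was called in U251 RIPSeq, beside 0.263% of 14087 genes lower and 0.944% higher, although 7 of the 10 had an unadjusted p under 0.05, as 20.1% of all genes did. DESeq2 called 3 lower (SFRP4, RYK, WNT5A) and 4 higher (SFRP1, DKK3, FZD2, FZD7), where it called 3.79% of all genes lower and 4.18% higher, the directions being those of edgeR. When the first control was left out edgeR called 4 genes lower and 4 higher, beside 35.3% and 32.8% of all genes. When the second was left out it called 3 lower and 6 higher, beside 34.2% and 40.2%. The lone control was assumed to vary like the miR-137 libraries, and most genes were called in these fits. RYK had a log2 fold change of -2.23 without the first control and of -0.78 without the second, and WNT5A of -2.19 and -0.88. LRP6 stood at -0.11 without the first and at 0.90 without the second. The median log2 fold change over the 10 genes was 0.28, and over all genes -0.02.

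In U343 total RNA, RYK fell as it had in U251, and SFRP4 rose. RYK was at 102 and 85.1 CPM in the controls and at 35.9 and 39.9 after miR-137, a 2.46-fold fall (log2 fold change -1.30 ± 0.13, adjusted p = 0.00954, edgeR). SFRP4 was at 2.49 and 2.16 against 6.29 and 4.74, a 2.37-fold rise from 197 reads to 466 (1.24 ± 0.22, adjusted p = 0.0289). FZD2 was at 18.3 and 21.5 against 32.5 and 36.5, a 1.74-fold rise (0.80 ± 0.14, adjusted p = 0.0261). For each of the 3 the groups did not overlap, which held for 6 of the 8 genes tested. The share over all genes was not counted for U343, and it was 79.5% in U251 RNASeq. When either control was left out, no gene of 15426 or 15539 tested was called in edgeR (0 of all genes, 2776 and 2675 with an unadjusted p under 0.05), these 3 included, with adjusted p from 0.152 to 0.266. Their log2 fold changes in those fits were -1.16 and -1.42 for RYK, 1.35 and 1.15 for SFRP4 and 0.69 and 0.92 for FZD2.

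Several genes differed between the 2 miR-137 libraries of this experiment. LRP6 was at 102 and 90.1 in the controls and at 70.7 and 38.1 after miR-137, and WNT5A at 145 and 101 against 136.8 and 72.1. FZD1 was at 57.3 and 57.8 against 64.5 and 44.9. Of these, LRP6 alone lay below both controls (-0.82 ± 0.31, adjusted p = 0.140), and the groups of WNT5A (-0.24 ± 0.36, adjusted p = 0.681) and FZD1 (-0.07 ± 0.19, adjusted p = 0.820) overlapped. FZD7 was at 53.6 and 54.2 against 42.7 and 41.2 (-0.36 ± 0.09, adjusted p = 0.0528), and DKK3, with 35 reads against 62, was at 0.476 and 0.343 against 0.522 and 0.943 (0.82 ± 0.42, adjusted p = 0.233). DESeq2 called LRP6 and FZD7 as well (adjusted p = 0.0360 and 0.0188), making 3 genes lower and 2 higher, where it called 15.6% and 13.0% of all genes. Leaving out miR-137 replicate 1 brought WNT5A to -0.78 (adjusted p = 0.0285), FZD1 to -0.36 (0.0182) and LRP6 to -1.34 (4.1e-04), while without replicate 2 WNT5A was at 0.15 (0.596), FZD1 at 0.17 (0.169) and LRP6 at -0.45 (0.0225).

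SFRP1 and DKK1 were too low to be tested in U343, with 2 reads each time for SFRP1 in the controls and after miR-137, and 6 reads against 0 for DKK1. A count of 0 allows up to 3 reads, so that no change could be seen at this depth. Of the 8 genes tested, 1 fell, where 11.7% of 15088 genes did, and 2 rose, where 8.31% did. Their median log2 fold change was -0.16, beside 0.02 over all genes.

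In U343 PABP-bound RNA, 7 of the 8 genes tested passed. RYK was at 85.2 and 86.7 CPM in the controls and at 34.4 and 34.4 after miR-137, a 2.50-fold fall (log2 fold change -1.32 ± 0.08, adjusted p = 1.1e-05, edgeR). LRP6 was at 61.9 and 60.3 against 26.0 and 31.5, a 2.13-fold fall (-1.09 ± 0.11, adjusted p = 1.1e-04), and WNT5A at 100 and 85.8 against 62.2 and 56.7, a 1.57-fold fall (-0.65 ± 0.10, adjusted p = 0.00122). In each of the 3 the miR-137 libraries lay below both controls. The groups did not overlap for any of the 8 genes tested, called or not. The share over all genes was not counted here, and it was 79.5% in U251 RNASeq. The rises were those of FZD2, from 17.4 and 16.8 to 46.8 and 41.7 (1.37 ± 0.10, adjusted p = 2.3e-05), and of SFRP4, from 1.93 and 1.23 to 5.35 and 3.40 (1.46 ± 0.29, adjusted p = 0.00367).

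DKK3 rose from a low level, at 0.310 and 0.271 against 0.794 and 0.868, or 25 reads against 65 (1.5 ± 0.29, adjusted p = 0.00310). FZD7 was at 39.7 and 38.8 against 31.0 and 34.2, a 1.20-fold fall (-0.27 ± 0.09, adjusted p = 0.0341, edgeR). This call of FZD7 missed the threshold with DESeq2, with upper-quartile normalization and with no filter beyond 1 read (adjusted p = 0.054). It also missed in 3 of the 4 fits without a library, where values ran from -0.34 to -0.20 over the 4. FZD1, at 41.3 and 41.4 against 36.4 and 39.5, did not pass (-0.12 ± 0.08, adjusted p = 0.253). SFRP1 and DKK1 were again not tested, with 9 reads in the controls and 9 after miR-137 for SFRP1 and 2 and 1 for DKK1. Thus 4 genes fell, where 27.8% of 14866 genes did, and 3 rose, where 28.5% did, with a median log2 fold change of -0.20 beside 0.00 over all genes.

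Whether the response to miR-137 differed between the lines was tested as an interaction in edgeR. In RNASeq, 4 of the 10 genes had a response that differed, where 25.2% of 15550 genes did. SFRP4 differed by 6.14 ± 0.33 on the log2 scale, U343 minus U251 (adjusted p = 1.8e-04), and WNT5A by 3.12 ± 0.41 (adjusted p = 0.00216). SFRP4 thus fell in U251 and rose in U343, and WNT5A fell in U251 with no fall that could be shown in U343 total RNA. FZD7 differed by -1.0 ± 0.16 (adjusted p = 0.00436), being higher after miR-137 in U251 and at lower values in U343. DKK1 was the fourth, at -5.29 ± 1.01 (adjusted p = 0.00985), but its U343 side rests on 6 reads against 0, where a fitted value depends on the prior count and is no bound, and the call was lost without U343 control replicate 2 (adjusted p = 0.0658).

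In RIPSeq, SFRP4 (2.81 ± 0.42, adjusted p = 0.0228) and FZD7 (-1.45 ± 0.23, adjusted p = 0.0270) differed between the lines in the same directions, where 3.28% of 15959 genes did. Each kept its call without either U251 control and lost it when any 1 of the other 6 libraries was left out, with adjusted p from 0.0776 to 0.232. In those 6 fits at most 1 gene of all those tested was called lower and 2 higher. The values there were 2.43 to 3.17 for SFRP4 and -1.6 to -1.39 for FZD7. For RYK the difference between the lines was 0.26 ± 0.18 in RNASeq and 0.42 ± 0.52 in RIPSeq (adjusted p = 0.318 and 0.688). For FZD2 it was 0.11 ± 0.25 and -0.14 ± 0.44 (adjusted p = 0.796 and 0.896). A p above the threshold does not show that these responses were the same.

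Whether the response differed between PABP-bound and total RNA was tested within each line. In U251, SFRP4 was the only 1 of the 10 genes called, at 3.56 ± 0.30 on the log2 scale, PABP-bound minus total (adjusted p = 0.0179), where 0.134% of 14210 genes were called in either direction. After miR-137 it stood at 0.902 and 0.799 CPM in total RNA and at 7.31 and 6.95 in PABP-bound RNA, from controls of 26.5 and 24.7 and of 16.5 and 18.5. In the 6 fits that left out a library other than a RIPSeq control, no gene of all those tested was called in edgeR (0 in either direction, with 1303 to 1899 at an unadjusted p under 0.05). SFRP4 had values of 3.59 to 3.74 there (adjusted p from 0.135 to 0.302). WNT5A, at 16.5 and 15.6 in total and 56.8 and 58.1 in PABP-bound RNA after miR-137, gave 1.62 ± 0.49 (adjusted p = 0.166), which DESeq2 called (adjusted p = 0.0350), beside 5.05% of all genes. In U343 none of the 8 genes was called, beside 0.00649% of 15413 genes, and 1 had an unadjusted p under 0.05 (FZD2, 0.58 ± 0.17, adjusted p = 0.207). DESeq2 called none of the 8 either, beside 272 lower and 127 higher of 15413 genes.

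Levels in PABP-bound against total RNA were compared in the controls, relative to the bulk of the genes. In U251, DKK1 was higher in PABP-bound RNA, at 464 and 612 against 301 and 263 CPM (log2 ratio 1.08 ± 0.21, adjusted p = 0.00647, edgeR). FZD7 was at 28.4 and 27.1 against 16.0 and 18.5 (0.84 ± 0.19, adjusted p = 0.0105), and DKK3 at 76.4 and 72.6 against 59.7 and 54.6 (0.53 ± 0.18, adjusted p = 0.0492). LRP6 was lower, at 40.1 and 75.5 against 141 and 138 (-1.12 ± 0.30, adjusted p = 0.0218). That is 3 genes higher, where 22.3% of 14210 genes were, and 1 lower, where 18.2% were. All 4 calls were lost when either RNASeq control was left out, with adjusted p from 0.0731 to 0.328. Of 8 fits without a library, DKK3 passed in 2, FZD7 in 4, LRP6 in 5 and DKK1 in 6. FZD7 also missed the threshold without either RIPSeq miR-137 library, and LRP6 without the first of them (adjusted p = 0.0512).

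In U343, FZD7 was lower in PABP-bound RNA, at 39.7 and 38.8 against 53.6 and 54.2 CPM (-0.33 ± 0.08, adjusted p = 0.0178), a call lost without any 1 of the 4 controls (adjusted p from 0.0716 to 0.102). It was the only 1 of the 8 genes called lower, where 15.7% of 15413 genes were, and none was called higher, where 18.2% were. The other 7 ran from -0.53 for LRP6 to 0.00 for RYK. FZD7 therefore lay on opposite sides in the 2 lines, although that difference was not tested.

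**Figure D3:**
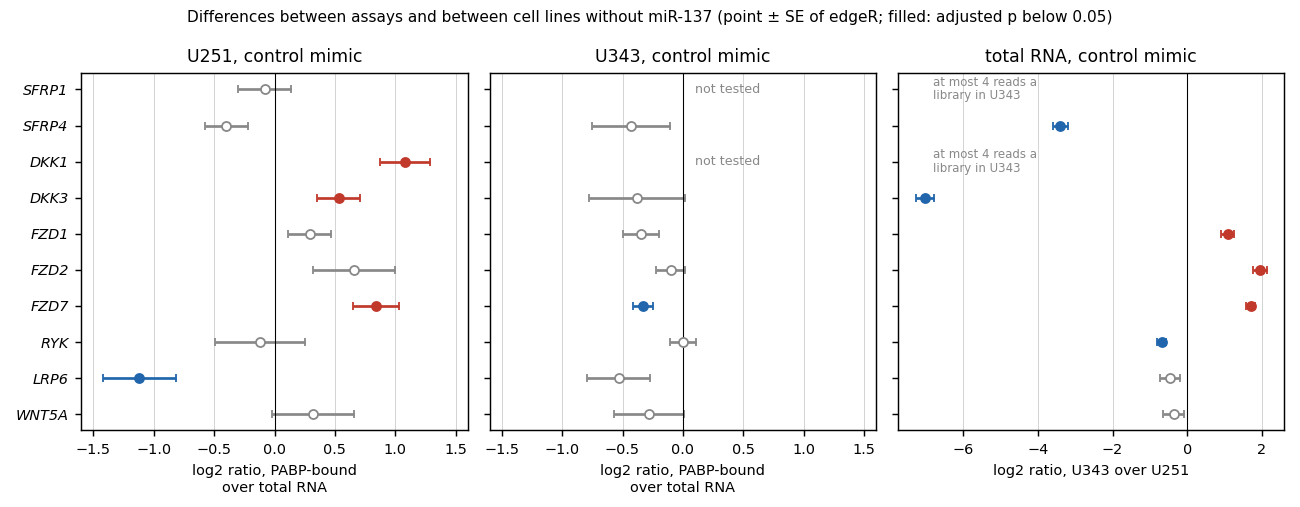
Points are log2 ratios from edgeR in control transfections: PABP-bound over total RNA in U251 and in U343, and U343 over U251 in total RNA. Bars are standard errors calculated from the F statistic, and filled points have an adjusted p below 0.05. The 3 frizzled genes lie at 1.08 to 1.95 in the third panel, to the right of 0, and SFRP4, DKK3 and RYK lie to the left.

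The study's own rule compares reads of libraries pair by pair and takes a gene as lower when Fisher's exact test of each control library with each miR-137 library, 4 pairs in all, gives an odds ratio above 2 (control over miR-137) and an adjusted p below 0.001 every time. It does not use the spread between replicates. By this rule RYK was lower in U251 RNASeq, with odds ratios of 2.37 to 2.58, in U343 RNASeq with 2.20 to 2.86 and in U343 RIPSeq with 2.39 to 2.60. In U251 RIPSeq its odds ratios ran from 1.84 to 4.18, and 1 end fell short. SFRP4 was lower in U251 RNASeq (22.7 to 27.7) and U251 RIPSeq (2.22 to 2.43), and WNT5A in U251 RNASeq (8.41 to 8.77), just missing in U251 RIPSeq (1.99 to 4.06).

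Counted by experiment, the rule took 3 of the 10 genes as lower in U251 RNASeq, where it took 2.21% of all genes, and 1 each in U251 RIPSeq (1.49%), U343 RNASeq (2.88%) and U343 RIPSeq (3.40%). Turned around for rises, it took SFRP1 and DKK1 in U251 RNASeq (2 genes, 6.14% of all genes), and SFRP1, DKK3, FZD2 and FZD7 in U251 RIPSeq (4 genes, 3.47%). It took none in U343 RNASeq (1.51%) and FZD2 in U343 RIPSeq (1 gene, 4.83%). LRP6 came near in U343 RIPSeq, with odds ratios of 1.84 to 2.47.

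Of 91 other genes of the pathway, 60 were tested in U251 RNASeq, of which 17 fell, 24 rose and 19 did not pass, with a median log2 fold change of 0.15, beside the 29.0% of all genes that fell and the 28.7% that rose. By role, 3 receptors fell and 6 rose of 12, 3 further antagonists fell and none rose of 6, and 1 ligand or ligand-secretion gene fell and 5 rose of 9. Of 19 cytoplasmic components 8 fell and 7 rose, of 9 nuclear factors 2 fell and 6 rose, and none of 5 common target genes passed (0 of 5 in either direction, edgeR). Among those with a change of at least 2-fold, 50 reads on average in the higher group and groups that did not overlap, the deepest falls were those of PRICKLE1, a planar polarity protein, from 181 and 169 CPM to 28.9 and 29.6 (5.98-fold), and of MIB1, a ubiquitin ligase, from 449 and 444 to 143 and 110 (3.52-fold). LGR5, an R-spondin receptor, fell 2.82-fold, and ROR1, a receptor of WNT5A, and WNT5B, the closest relative of WNT5A, each fell 2.02-fold. Under the same conditions the highest rises were those of BCL9L, a beta-catenin co-activator, from 37.7 and 16.3 to 91.3 and 139 (4.28-fold), WNT3 (3.09-fold), TLE3 (2.39-fold) and TCF7 (2.28-fold).

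In U343 RNASeq 5 of 63 fell and 11 rose, beside 11.7% and 8.31% of all genes, with the nuclear factor PYGO1 down 2.95-fold, TNFRSF19 up 5.88-fold, and the secreted antagonists NOTUM and DKK2 up 5.30-fold and 5.03-fold. In U343 RIPSeq 14 of 66 fell and 27 rose, beside 27.8% and 28.5% of all genes. There NOTUM, a Wnt-inactivating enzyme, went from 1.53 and 1.77 CPM to 8.35 and 5.82 (4.30-fold), and DKK2 from 0.466 and 0.295 to 2.95 and 1.84 (6.19-fold). RNF43, which removes frizzled receptors from the cell surface, went from 0.643 and 0.344 to 5.71 and 4.93 (10.6-fold), and NKD1 rose 10.1-fold, from 16 reads to 150. FZD4 rose 3.36-fold, while CTNNBIP1 fell 2.55-fold and DAAM1 2.10-fold. In this experiment 4 of 6 common target genes rose and none fell, on a list too short to read against the 28.5%. In U251 RIPSeq none of 68 passed in edgeR.

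Most interferon-induced genes on a list of 12 had higher values after miR-137 in the same libraries. All 12 rose in U251 RNASeq, with log2 fold changes from 2.02 to 11.87 and a median of 6.20, where 28.7% of all genes rose. In U251 RIPSeq 10 of 12 rose (median 6.51, lowest -1.28), beside 0.944% of all genes. In U343 RIPSeq 11 of 12 did (median 7.12, lowest 0.26), beside 28.5%. In U343 RNASeq none of the 12 passed, at a median of 5.59 and a lowest value of -0.38, where 8.31% of all genes rose. Their part in the changes of the Wnt genes was not tested.

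The genes whose levels ran most like each of the 10 were found over the 16 libraries, by Pearson's r of log2 CPM plus 0.5, as a description. The libraries share their line and experiment, which dominate these patterns. EPHB2 was nearest to both SFRP1 (r = 0.994) and DKK1 (r = 0.995), MCAM to DKK3 (0.994), and FHDC1 (0.952) and TAGLN (0.924) to SFRP4. RAVER2 (0.971) and STK3 (0.968) were nearest to RYK, DICER1 (0.962) to LRP6 and TOMM20 (0.969) to WNT5A. For the frizzled genes they were TMEM198 for FZD2 (0.969), C10orf114 for FZD1 (0.963) and PGBD5 for FZD7 (0.917).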

How the data were processed

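Reads of 16 libraries were aligned by the authors to hg18 with RMAP and counted on a merged transcript per RefSeq gene, and the deposited values are raw counts with no normalization. The U251 tables list a gene on 2 lines, of which the first was kept. Strand-specific counting and the treatment of reads that fit several places are not given in the sources used here, and a further U251 replicate was not analysed here. Counted reads ranged from 10156675 to 18224061 a library in U251 RNASeq, 22359794 to 30731476 in U251 RIPSeq, 37952273 to 45134766 in U343 RNASeq and 37736206 to 45055184 in U343 RIPSeq.

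The 10 genes and all gene lists were chosen with earlier results of these data known. Tests used edgeR 4.0.16 (TMM, filterByExpr, quasi-likelihood F test) within each experiment, on all genes, at a Benjamini-Hochberg adjusted p below 0.05. Interactions and control contrasts used 8 libraries in 4 groups. Each SE given with edgeR was calculated as the size of the log2 value divided by the square root of the F statistic. The study's rule was run with scipy, two-sided, over all genes of a table. Alternatives were DESeq2 1.42.0, upper-quartile normalization, no filter beyond 1 read, a replicate block and each library left out. Other pathway genes are named, at most 5 in each direction, when past the threshold with a log2 fold change of at least 1 in size, 50 reads on average in the higher group and libraries that do not overlap. Genes of like pattern were sought among those with a mean of 1 CPM in both lines. On simulated counts with 200 genes changed 4-fold, edgeR recovered 95.0% in U251 RNASeq, 49.5% in U251 RIPSeq, 86.0% in U343 RNASeq and 96.5% in U343 RIPSeq, for 13052, 14087, 15088 and 14866 genes. Each simulated gene had the same spread in all libraries, which the U251 RIPSeq and U343 RNASeq libraries did not, so these shares may not hold for the data.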

Additional observations from a re-analysis of the deposited data

Results flagged for a closer look

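Responses to miR-137 that differed between assays or cell lines, by an edgeR interaction over all genes, are set out here. SFRP4 differed between PABP-bound and total RNA in U251 (3.56 on the log2 scale, adjusted p = 0.0179). It also differed between U343 and U251 in RNASeq (6.14, adjusted p = 1.8e-04) and in RIPSeq (2.81, adjusted p = 0.0228). FZD7 differed between the lines in RNASeq (-1.0, adjusted p = 0.00436) and in RIPSeq (-1.45, adjusted p = 0.0270), and WNT5A in RNASeq (3.12, adjusted p = 0.00216). The value of DKK1 in RNASeq (-5.29, adjusted p = 0.00985) rests on 6 reads against 0 in U343. Line and cDNA kit cannot be told apart. Groups of 2 are too small for a search for single outlying libraries.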

How the results depend on the processing

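Counts of the 10 genes called are given here, lower first. In U251 RIPSeq, where edgeR called 0 and 0, DESeq2 called 3 and 4, beside 3.79% and 4.18% of all genes. The replicate block called 1 and 2 there, beside 273 and 529 of 14087 genes. In U343 RNASeq DESeq2 called 3 lower in place of 1, beside 15.6% of all genes in place of 11.7%. For the U251 interaction with assay DESeq2 called 2 in place of 1 higher, beside 314 in place of 15 of 14210 genes. For the RIPSeq interaction with line it called 2 in place of 1 lower, beside 665 in place of 195 of 15959 genes. The replicate block called 0 in both. In the first, SFRP4 was at an adjusted p of 0.059, where the block called 0 of all 14210 genes. In the second, FZD7 was at 0.0983, where the block called 44 genes lower. The block also ended the call of DKK3 in PABP-bound against total RNA of U251 (0.0715). Whether replicate numbers mark pairs is not known. Correlations of the deviations of libraries with the same number were 0.0517, -0.0985, 0.125 and 0.422 over the 4 experiments, 2 pairs each. The highest was that of U343 RIPSeq. There the block kept 4 and 3 of the 10 genes, beside 4787 and 4858 in place of 4130 and 4234 of 14866 genes. By the study's rule, an odds ratio of 1.5 gave 4 in place of 2 higher in U251 RNASeq, beside 2372 in place of 1248 of 20314 genes. It gave 3 in place of 1 lower in U251 RIPSeq (745 in place of 302 of all genes) and 2 in place of 0 higher in U343 RNASeq (732 in place of 311). In U343 RIPSeq it gave 2 in place of 1 in both directions (1677 in place of 702 lower and 1760 in place of 997 higher). TMM-scaled totals gave 1 higher in U251 RNASeq, beside 793 of all genes.

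A fit without a library leaves 1 library in a group, and the number of all genes called changed with the library left out. Values of RYK and SFRP4 are therefore given in place of counts for the responses to miR-137 and their interactions. RYK was at -1.61 to -1.52 in U251 RNASeq and -2.23 to -0.78 in U251 RIPSeq. In U343 RYK was at -1.42 to -1.16 in RNASeq and -1.34 to -1.32 in RIPSeq. SFRP4 was at -4.98 to -4.82 and -1.38 to -1.12 in U251, and at 1.01 to 1.43 and 1.09 to 1.82 in U343. The interaction with assay was -0.6 to 0.73 for RYK and 3.59 to 3.74 for SFRP4 in U251. In U343 it was -0.16 to 0.11 for RYK and -0.16 to 0.6 for SFRP4. The interaction with line was 0.13 to 0.46 for RYK and 5.92 to 6.33 for SFRP4 in RNASeq. In RIPSeq it was -0.43 to 0.93 for RYK and 2.43 to 3.17 for SFRP4. Only counts of the 10 genes called, lower first, are given for the control contrasts and the rule. In PABP-bound against total RNA they were lowest in the fits that called the fewest of all genes. The number of all genes also changed with the library left out in U343 against U251 and by the rule. These ranges therefore do not describe the 10 genes apart from all genes. PABP-bound against total RNA gave 0 to 5 and 0 to 6 in U251 and 0 to 3 and 0 in U343, and U343 against U251 gave 5 to 7 and 3. By the rule the ranges were 3 and 2 to 4, 1 to 3 and 4, 1 to 2 and 0 to 1, and 1 to 2 and 1 to 2 in the 4 experiments in that order.

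Log2 fold changes of miR-137 over control that turned sign were all of genes not called with all libraries. LRP6 in U251 RNASeq was 0.02 with upper-quartile normalization and -0.36 to 0.09 without a library, and in U251 RIPSeq -0.11 to 0.90. FZD1 and WNT5A in U343 RNASeq ran from -0.36 to 0.17 and from -0.78 to 0.15. Interactions and control contrasts of uncalled genes turned sign as well when a library was left out. Examples are RYK (-1.03 to 0.36) and WNT5A (-0.49 to 0.77) in PABP-bound against total RNA of U251, and DKK1 (-3.09 to 1.87) in the RIPSeq interaction with line. The cause was not tested. With 2 libraries a group, a fit without a library takes the lone one to vary like the others. In the simulation of U251 RIPSeq, 45 of 190 DESeq2 calls were false, against 7 of 106 in edgeR. The simulation gave each gene 1 spread, estimated by edgeR, in all libraries. In the data the U251 RIPSeq controls differed far more than the miR-137 libraries (chi-square per degree of freedom 286 against 2.82). It therefore cannot tell how many of the DESeq2 calls in the data are false.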
